A study of Homo sapiens with 10 samples.

Results

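The MAP kinase phosphatases of the DUSP family were followed in A253 cells after one allele of DUSP1 had been disrupted. The 10 genes with catalytically active MAP kinase phosphatases (DUSP1, DUSP2, DUSP4, DUSP5, DUSP6, DUSP7, DUSP8, DUSP9, DUSP10 and DUSP16) were taken by name from a count table of 58735 genes, and all 10 were found. All 10 also passed the filter on low counts in every comparison. A253 is a human cell line derived from a salivary gland squamous cell carcinoma (SG-SCC). The control carried Cas9 and a guide RNA against dTomato, a gene that these cells do not have. Cl1 and Cl10 carried Cas9 and guides against DUSP1, and each is a clone grown from one cell, heterozygous for a deletion of DUSP1 exon 2 (DUSP1-/+). Each group had 2 libraries of poly(A) RNA, and nothing in the labels says that the libraries of a group came from separate cultures, so the p-values measure the spread between these libraries only. The DUSP1-/+ genotype is represented by these 2 clones and the control is not described as a clone, so the effects of the deletion and of growth from one cell cannot be told apart, and both clones were compared with the same 2 control libraries.

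MAP kinase phosphatases switch off ERK, JNK and p38 by removing the phosphates from both the threonine and the tyrosine of the activation loop. Many of them are themselves transcribed in response to MAP kinase signalling, so that they act as negative feedback. The family is usually divided into nuclear, inducible enzymes (DUSP1, DUSP2, DUSP4, DUSP5), cytoplasmic enzymes selective for ERK (DUSP6, DUSP7, DUSP9) and enzymes selective for JNK and p38 (DUSP8, DUSP10, DUSP16). DUSP1 acts on p38, JNK and ERK and is an immediate early gene induced by stress and growth factors. The question asked of the data was whether transcripts of the other members were higher in cells that had lost one DUSP1 allele. In both clones the paper saw no DUSP1 protein on western blots, although the deletion is heterozygous. It proposes inactivating indels in the remaining allele as a possible reason. Transcript counts do not measure the protein, so the DUSP1 levels given below are not levels of working enzyme.

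DUSP1 (ENSG00000120129) lies on the minus strand at chr5:172768096-172771195 of hg38 and has 4 exons. The guides are shown because they define which part of the gene was removed, each with its PAM in capitals after the 20 bases of the guide.
sgHDUSP1_int1: gctggaagtttacatcggaaAGG
sgHDUSP1_int2: ggaactaagcccatttgcctGGG
The first matched intron 1 on the plus strand at chr5:172770388-172770407, and the second matched intron 2 on the plus strand at chr5:172769936-172769955. The expected cuts, 3 bases from each PAM, lie 452 bases apart and enclose exon 2 (chr5:172770161-172770306, minus strand), whose 146 bases leave 2 bases over whole codons.
DUSP1 exon 2: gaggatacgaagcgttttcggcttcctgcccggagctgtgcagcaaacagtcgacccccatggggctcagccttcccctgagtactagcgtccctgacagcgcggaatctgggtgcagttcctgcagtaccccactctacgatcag
Exon 2 makes up 146 of the 2013 exon bases of the gene, so counts per gene hold reads from both alleles, and a transcript that lacks exon 2 is still counted through the other exons. The counts therefore do not show whether the deletion is present.

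The 250 bases before the transcription start are shown for DUSP1 and for DUSP6, DUSP2 and DUSP8, members that were higher in at least 1 clone, taken from RefSeq for GRCh38.p14 and written 5′ to 3′ on the strand of the gene. Capitals mark matches, on both strands, to the letters of a full cAMP response element (CRE, TGACGTCA), its shorter core (TGACG), an AP-1 site (TGANTCA), an ETS site (CCGGAAGT), an E-box (CACGTG) or a TATA box (TATAAA).
DUSP1, chr5:172771196-172771445, minus strand: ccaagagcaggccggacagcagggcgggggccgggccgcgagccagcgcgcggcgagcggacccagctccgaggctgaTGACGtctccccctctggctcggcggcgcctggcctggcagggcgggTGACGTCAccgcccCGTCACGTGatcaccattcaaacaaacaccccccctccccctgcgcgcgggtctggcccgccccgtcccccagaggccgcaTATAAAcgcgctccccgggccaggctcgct
DUSP6, chr12:89352502-89352751, minus strand: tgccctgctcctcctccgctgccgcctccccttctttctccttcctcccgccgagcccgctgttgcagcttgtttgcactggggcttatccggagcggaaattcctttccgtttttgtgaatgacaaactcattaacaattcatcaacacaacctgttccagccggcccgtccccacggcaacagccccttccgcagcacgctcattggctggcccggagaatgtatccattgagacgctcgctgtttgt
DUSP2, chr2:96145441-96145690, minus strand: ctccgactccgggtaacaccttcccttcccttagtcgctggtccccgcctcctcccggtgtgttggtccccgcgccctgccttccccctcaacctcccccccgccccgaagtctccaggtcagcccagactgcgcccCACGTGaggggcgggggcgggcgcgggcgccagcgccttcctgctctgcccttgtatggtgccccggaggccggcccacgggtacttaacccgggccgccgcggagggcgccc
DUSP8, chr11:1572272-1572521, minus strand: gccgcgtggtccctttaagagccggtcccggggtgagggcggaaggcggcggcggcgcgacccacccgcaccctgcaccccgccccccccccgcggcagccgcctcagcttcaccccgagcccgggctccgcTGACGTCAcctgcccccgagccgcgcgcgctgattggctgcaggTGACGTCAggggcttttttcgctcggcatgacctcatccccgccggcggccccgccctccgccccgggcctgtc
The DUSP1 window held a full CRE 125 bases before the start, an E-box at 108 bases that overlaps a CRE core at 111 bases, and a TATA box at 30 bases. DUSP8 held a full CRE at 118 and another at 74 bases, and DUSP2 held an E-box at 113 bases. The DUSP6 window matched none of the 6 motifs. Of all 35116 RefSeq windows of this length, 1.65% held a full CRE, 21.2% its core, 6.57% an AP-1 site, 3.42% an ETS site, 6.34% an E-box and 10.7% a TATA box. Windows were found for 8 of the 10 members, and those of DUSP7, DUSP9, DUSP10 and DUSP16 held no match. The GC content was 74.4% for DUSP1, 57.2% for DUSP6, 74.0% for DUSP2 and 76.8% for DUSP8, against a median of 58.0% over all windows. A match of letters is a description and no evidence of binding.

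The libraries held between 47016495 and 70986593 counts, and the 10 most abundant genes took 4.13% to 5.42% of them. All 8 epithelial markers (keratins, TP63, CDH1, EPCAM and ITGA6) were present. They summed to 13200 CPM (counts scaled to library size) in both control libraries, 15300 to 15500 in Cl1 and 14000 to 14500 in Cl10. The 5 markers of salivary acinar cells summed to 0.188 to 0.43 CPM, and the 4 of leukocytes to 0.262 to 0.597. The 3 markers of myoepithelial cells summed to 4.52 to 5.16 CPM in the control, 3.81 to 3.83 in Cl1 and 3.27 to 3.41 in Cl10, and of these ACTA2 was lower in Cl1 (-1.48 on the log2 scale) and in Cl10 (-2.89; edgeR adjusted p = 0.00368 and 0.000722). The 3 of endothelium summed to 2.74 to 4.45 in the control, 5.73 to 7.64 in Cl1 and 3.19 to 4.14 in Cl10, mostly from VWF. VWF was higher in Cl1 (0.93, edgeR adjusted p = 0.0102). CDH5 passed the filter on low counts in Cl10 only through the Cl10 libraries, so nothing is read from its call there (2.30, edgeR adjusted p = 0.0229). The 4 fibroblast markers summed to 26.9 to 31.3 CPM in the control and Cl1 and to 18.1 in both Cl10 libraries, nearly all from COL1A1. No marker was at 0 in all 6 libraries. The part of these differences in the results for the phosphatases was not tested, and in bulk RNA fewer cells of a type and less RNA per cell cannot be told apart.

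The phosphatases did not move together in either clone. Against the control, DUSP2 and DUSP6 were higher and DUSP1, DUSP4 and DUSP5 were lower in Cl1. In Cl10 these 5 genes differed in the same directions, and DUSP8 was also higher and DUSP9 lower. DUSP7, DUSP10 and DUSP16 did not pass the test in either clone. A gene passed where edgeR's quasi-likelihood test gave a Benjamini-Hochberg adjusted p under 0.05 over all genes tested, and fold changes are on a log2 scale.

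In Cl1, 2 of the 10 members were higher and 3 lower, where 12.4% and 12.8% of all 20153 genes tested were higher and lower. In Cl10, 3 members were higher and 4 lower, beside 20.6% and 21.8% of 19875 genes. The lower members of each clone include DUSP1, the gene that the guides targeted. The median log2 fold change of the members was 0.02 in Cl1 and 0.01 in Cl10, and that of all genes was -0.01 in both. When an absolute log2 fold change above 1 was also required, 2 members were lower in Cl1, DUSP1 and DUSP4, and 2 were higher in Cl10, DUSP2 and DUSP6, where 3.27% of all genes were that much lower in Cl1 and 5.98% that much higher in Cl10. Under that rule 0 members were higher in Cl1 (4.27% of all genes) and 0 were lower in Cl10 (7.45%), with edgeR and with DESeq2 alike, although 2 and 4 members respectively had an unadjusted p under 0.05 in these directions with edgeR.

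**Figure D1:**
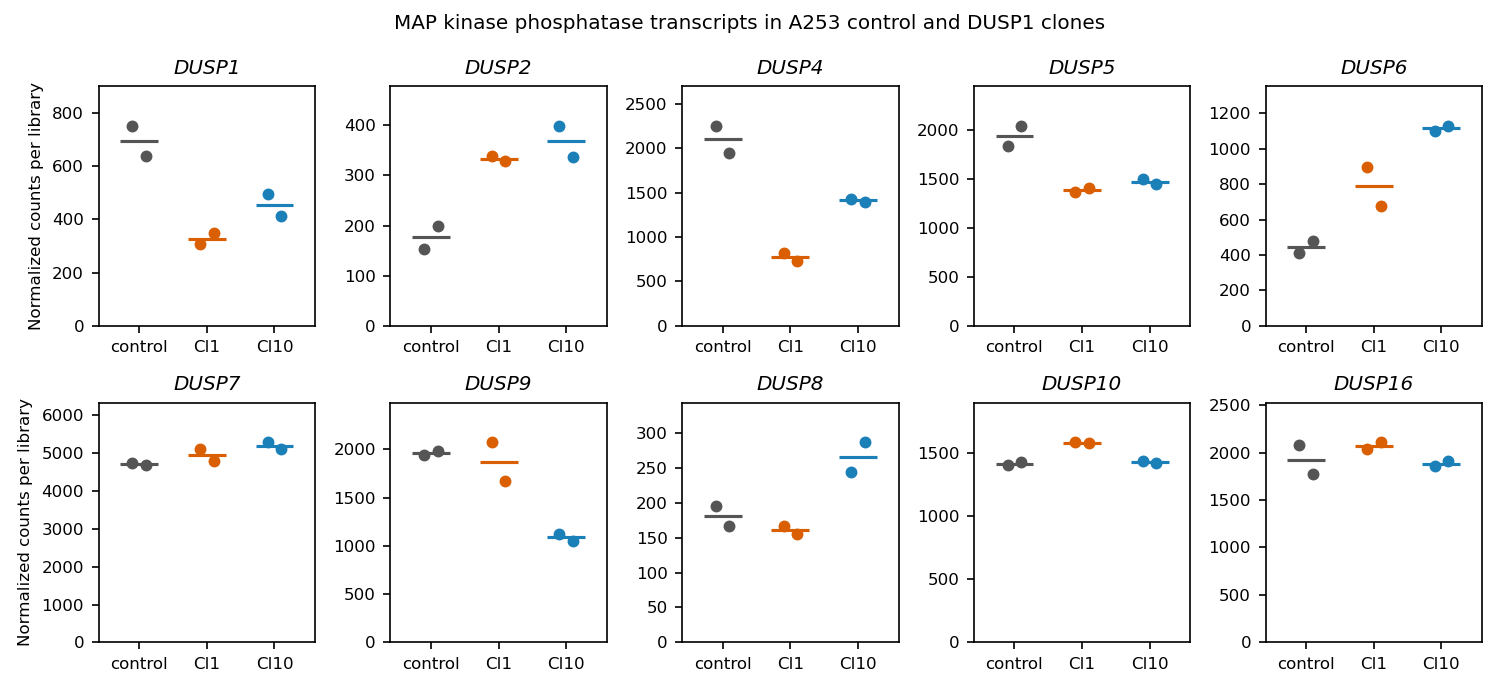
Normalized counts (vertical axes, from 0) of the 10 phosphatase genes in the 2 control, 2 Cl1 and 2 Cl10 libraries. Points are libraries and lines are group means. DUSP1, DUSP4 and DUSP5 lie lower and DUSP2, DUSP6 and DUSP7 higher in all 4 clone libraries than in both control libraries. DUSP7 did not pass the test in either clone.

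The nuclear, inducible class held most of the genes that were lower. DUSP1 had 751 and 637 normalized counts in the control libraries, 306.5 and 348 in Cl1 and 494 and 414 in Cl10, where counts were scaled by TMM to the mean library total. All 4 clone libraries lay below both controls, and the Cl1 libraries lay below those of Cl10. The level in Cl1 was 47.6% of the control (log2 fold change -1.07 ± 0.15, SE, n = 2 libraries per group, edgeR adjusted p = 0.000292) and that in Cl10 was 66.2% (-0.59 ± 0.13, edgeR adjusted p = 0.0113). The difference in Cl10 did not pass without Cl10 replicate 2 (-0.48, edgeR adjusted p = 0.0794). DUSP1 was higher in Cl10 than in Cl1 by 0.48 ± 0.13 (edgeR adjusted p = 0.00817), a difference that did not pass without Cl10 replicate 1 (0.35, edgeR adjusted p = 0.111).

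DUSP4 (ENSG00000120875, chr8:29333064-29350684, minus strand) encodes a nuclear phosphatase of ERK and JNK. It had 2249.5 and 1948 normalized counts in the control, 824 and 730.3 in Cl1 and 1431 and 1394.5 in Cl10. The groups did not overlap, and the order was control, Cl10, Cl1. DUSP4 fell by 1.42 ± 0.12 in Cl1 (SE, edgeR adjusted p = 6.1e-06) and by 0.55 ± 0.09 in Cl10 (edgeR adjusted p = 0.00357), so that in Cl1 it was at 37.4% of the control. Among the 10 members this was the largest fall in Cl1.

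DUSP5 (ENSG00000138166, chr10:110497907-110511533, plus strand), a nuclear phosphatase that acts on ERK and is induced by ERK signalling, had 1839.7 and 2041 normalized counts in the control, 1364 and 1409 in Cl1 and 1496 and 1450.5 in Cl10. All 4 clone libraries lay below both controls, by a log2 fold change of -0.47 ± 0.11 in Cl1 (SE, edgeR adjusted p = 0.0092) and -0.38 ± 0.09 in Cl10 (edgeR adjusted p = 0.0127). The call was lost whenever a clone library was left out, with -0.43 or -0.51 in Cl1 (edgeR adjusted p = 0.121 and 0.0568) and -0.40 or -0.36 in Cl10 (0.11 and 0.148), and such fits also called fewer of all genes, 2718 or 2861 in place of 5064 in Cl1 and 5263 or 5141 in place of 8439 in Cl10.

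DUSP2 (ENSG00000158050, chr2:96143169-96145440, minus strand), first known as a phosphatase of activated lymphocytes and induced by growth factors in other cells, was the exception in this class. It had 153 and 199 normalized counts in the control, 338 and 328 in Cl1 and 398 and 337 in Cl10. Every clone library lay above both controls, and Cl1 and Cl10 overlapped. DUSP2 was 1.92-fold higher in Cl1 (log2 fold change 0.94 ± 0.18, SE, edgeR adjusted p = 0.00223) and 2.13-fold higher in Cl10 (1.09 ± 0.17, edgeR adjusted p = 0.00289), and it was past the threshold in Cl1 and Cl10 under each alternative that kept the adjusted p alone as its rule.

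Of the cytoplasmic, ERK-selective class, DUSP6 (ENSG00000139318, chr12:89347235-89352501, minus strand) differed most. DUSP6 is a feedback inhibitor that binds ERK, and its transcript is widely used as a readout of ERK activity. It had 411 and 478 normalized counts in the control, 898 and 678 in Cl1 and 1103 and 1129 in Cl10. The groups did not overlap, with the order control, Cl1, Cl10. DUSP6 was 1.80-fold higher in Cl1 (log2 fold change 0.85 ± 0.16, SE, edgeR adjusted p = 0.00196) and 2.55-fold higher in Cl10 (1.35 ± 0.11, edgeR adjusted p = 0.000215). It shares 1105 exon bases with an antisense long noncoding RNA (ENSG00000274021) that had between 1 and 11 raw counts per library, and since the strand setting of the counting is not given in the sources used here, reads of the pair cannot be told apart.

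DUSP9 (ENSG00000130829, chrX:153642492-153651326, plus strand), a close relative of DUSP6 that also acts on ERK, had 1938 and 1984 normalized counts in the control, 2071 and 1673 in Cl1 and 1125 and 1049 in Cl10. The Cl1 libraries lay on either side of the controls, whereas both Cl10 libraries lay below the other 4. DUSP9 fell by 0.83 ± 0.08 in Cl10 (SE, edgeR adjusted p = 0.000415). In Cl1 the log2 fold change was -0.05, with a 95% interval from -0.31 to 0.21 (edgeR adjusted p = 0.791).

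DUSP7 (ENSG00000164086, chr3:52048919-52056571, minus strand), the third ERK phosphatase of the cytoplasm, had 4751 and 4684 normalized counts in the control, 5099.5 and 4790.1 in Cl1 and 5285 and 5111 in Cl10. All 4 clone libraries were above the controls, but the differences were small. The 95% interval of the fold ran from 0.901 to 1.25 in Cl1 (edgeR adjusted p = 0.617) and from 0.983 to 1.26 in Cl10 (edgeR adjusted p = 0.14).

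Among the JNK- and p38-selective members, DUSP8 (ENSG00000184545, chr11:1554051-1572271, minus strand), a phosphatase best known in brain and heart, had 195 and 166 normalized counts in the control, 166 and 156 in Cl1 and 244 and 286 in Cl10. The Cl10 libraries lay above the other 4. DUSP8 was higher in Cl10 by 0.57 ± 0.16 (SE, edgeR adjusted p = 0.0275), and this call was lost with DESeq2 (adjusted p = 0.0519) and without Cl10 replicate 2 (0.45, edgeR adjusted p = 0.167). In Cl1 its log2 fold change was -0.15, with a 95% interval from -0.55 to 0.25 (edgeR adjusted p = 0.593).

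DUSP10 (ENSG00000143507, chr1:221701424-221742089, minus strand), which inactivates p38 and JNK, had 1402 and 1422 normalized counts in the control, 1579.9 and 1574 in Cl1 and 1431 and 1418 in Cl10. Its Cl1 libraries lay above the rest, but the log2 fold change of 0.18 had a 95% interval from -0.06 to 0.41 (edgeR adjusted p = 0.262). In Cl10 the fold lay between 0.897 and 1.16. DUSP16 (ENSG00000111266, chr12:12473282-12562863, minus strand), a phosphatase that binds JNK, had 2077 and 1770.5 normalized counts in the control, 2033 and 2105.5 in Cl1 and 1855 and 1913 in Cl10. The groups overlapped, and the 95% interval of the fold ran from 0.915 to 1.29 in Cl1 and from 0.845 to 1.16 in Cl10 (edgeR adjusted p = 0.483 and 0.925). A change of DUSP7, DUSP10 or DUSP16 above 1.33-fold in either direction lay outside these intervals.

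**Figure D2:**
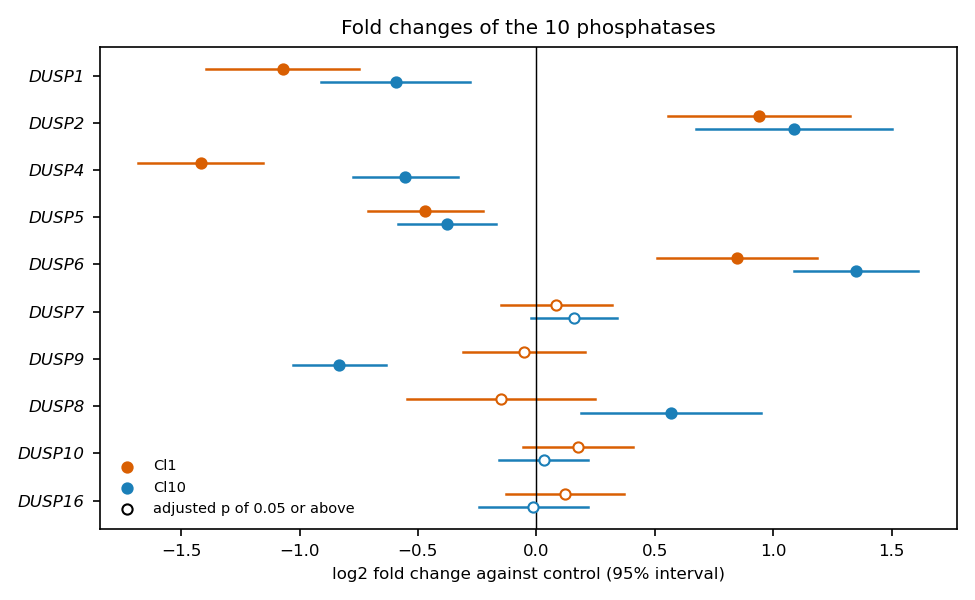
Log2 fold changes of the 10 phosphatase genes against the control in Cl1 (orange) and Cl10 (blue), with 95% intervals of the edgeR fit as lines. Filled points passed an adjusted p of 0.05. They run from -1.42 for DUSP4 in Cl1 to 1.35 for DUSP6 in Cl10, and DUSP7, DUSP10 and DUSP16 are open in both clones.

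Between the clones, 4 members were higher in Cl10 than in Cl1 and 1 was lower, where 24.9% of all 19818 genes tested were higher and 24.1% lower. The 4 were DUSP4 (0.86 ± 0.08, SE, edgeR adjusted p = 2.86e-06), DUSP8 (0.72 ± 0.15; 0.00187), DUSP6 (0.50 ± 0.11; 0.00206) and DUSP1 as given above. DUSP9 was the one that was lower (-0.78 ± 0.09, edgeR adjusted p = 1.64e-05). The others had edgeR adjusted p-values from 0.1 for DUSP10 to 0.346 for DUSP2. With a log2 fold change above 1 in size, 0 members differed between the clones with edgeR or with DESeq2, although 4 were higher and 1 was lower at an unadjusted p under 0.05, and 4.48% and 6.3% of all genes were that much higher and lower in Cl10.

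To compare levels between genes, CPM values were divided by the length of the merged exons in kb (CPM per kb). In the control, DUSP7 (14.5 CPM per kb), DUSP5 (13.3) and DUSP9 (12.3) were the most abundant, followed by DUSP10 (8.68), DUSP1 (5.99), DUSP4 (5.01), DUSP16 (4.69), DUSP6 (2), DUSP2 (1.59) and DUSP8 (0.632). DUSP4 and DUSP16 overlapped between libraries, and no other genes next to each other in this order did. In Cl1, DUSP1 (2.83) and DUSP4 (1.86) stood below DUSP6 (3.55) and DUSP2 (3.0), with DUSP2 and DUSP1 overlapping. In Cl10, DUSP6 (5.02) stood above DUSP1 (3.92), DUSP4 (3.38) and DUSP2 (3.31), where DUSP2 overlapped with both DUSP4 and DUSP1, and DUSP9 (6.82) had moved below DUSP10 (8.76). DUSP7 was the most abundant and DUSP8 the least abundant member in all 3 groups. These levels depend on the exon model, which is the same for all libraries.

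The summed level of the 10 genes, a sum in which abundant members weigh most, was 68.8 and 68.5 CPM per kb in the control, 64.9 and 60.9 in Cl1 and 63.9 and 61.6 in Cl10. Without DUSP1 it was 62.3 and 63.0 in the control, 62.3 and 57.9 in Cl1 and 59.7 and 58.0 in Cl10. No clone library thus exceeded both control libraries in the summed level of the other 9 members. DUSP1 made up 9.43% and 8.03% of the family sum in the control, 4.08% and 4.94% in Cl1 and 6.68% and 5.8% in Cl10. The nuclear, inducible class summed to 25.85 and 25.95 CPM per kb in the control libraries, 17.01 and 17.4 in Cl1 and 21.5 and 19.9 in Cl10. The ERK-selective class summed to 28.57 and 28.96 in the control, 32.67 and 28.24 in Cl1 and 28.22 and 27.33 in Cl10. For the JNK and p38 class the sums were 14.36 and 13.64, 15.25 and 15.35, and 14.17 and 14.38 in the same order. In the JNK and p38 class both Cl1 libraries and Cl10 replicate 2 lay above both controls. In the ERK-selective class only Cl1 replicate 1 did. The sums are descriptions without a test.

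**Figure D3:**
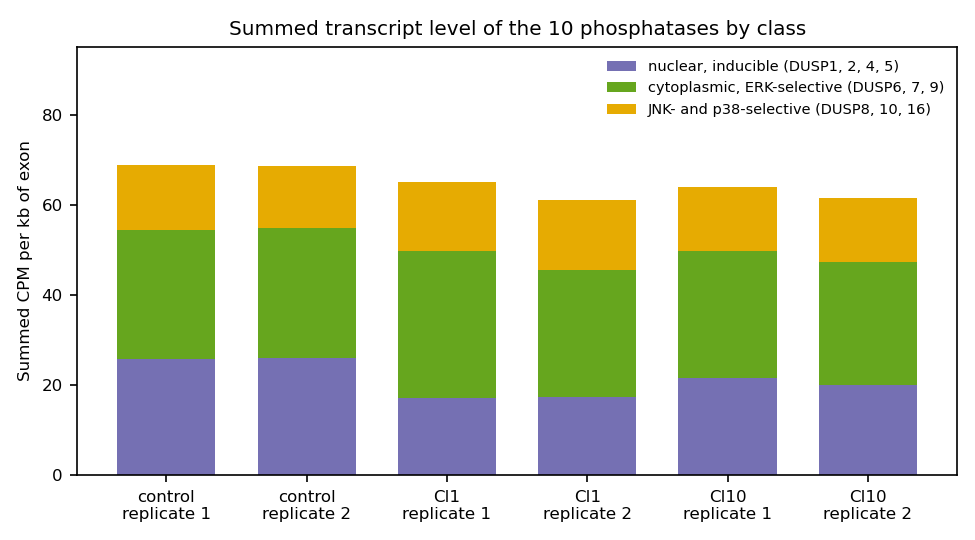
Summed CPM per kb of exon (vertical axis, from 0) of the 10 phosphatase genes in each of the 6 libraries, stacked by class. Totals run from 60.9 to 68.8, and the nuclear, inducible class (bottom) falls from 25.85 and 25.95 in the control to between 17.01 and 21.5 in the clones.

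In a clone, a whole stretch of a chromosome can differ from the control, so each member was set beside the median log2 fold change of the 50 nearest tested genes. Around DUSP1 that median was -0.28 in Cl1 and 0.09 in Cl10. With the local median subtracted, DUSP1 was at -0.79 in Cl1 (edgeR adjusted p = 0.00254) and -0.69 in Cl10 (edgeR adjusted p = 0.00728), and the difference between the clones went from 0.48 to 0.10 (edgeR adjusted p = 0.544). Around DUSP4 the median was -0.09 in Cl1 and -0.10 in Cl10, around DUSP2 it was -0.09 and 0.04, and around DUSP6 it was -0.18 and -0.07. In both clones these 3 genes lay outside the range of those medians. Around DUSP5 the median was -0.05 in Cl1 and 0.14 in Cl10. With the local median subtracted, DUSP5 was at -0.42 in Cl1 (edgeR adjusted p = 0.0169) and -0.52 in Cl10 (edgeR adjusted p = 0.00412). The region of DUSP8 was at 0.22 in Cl10, and with this subtracted DUSP8 no longer passed (0.35, edgeR adjusted p = 0.124). Around DUSP10 the neighbours were at 0.37 in Cl1, above DUSP10 itself at 0.18.

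**Figure D4:**
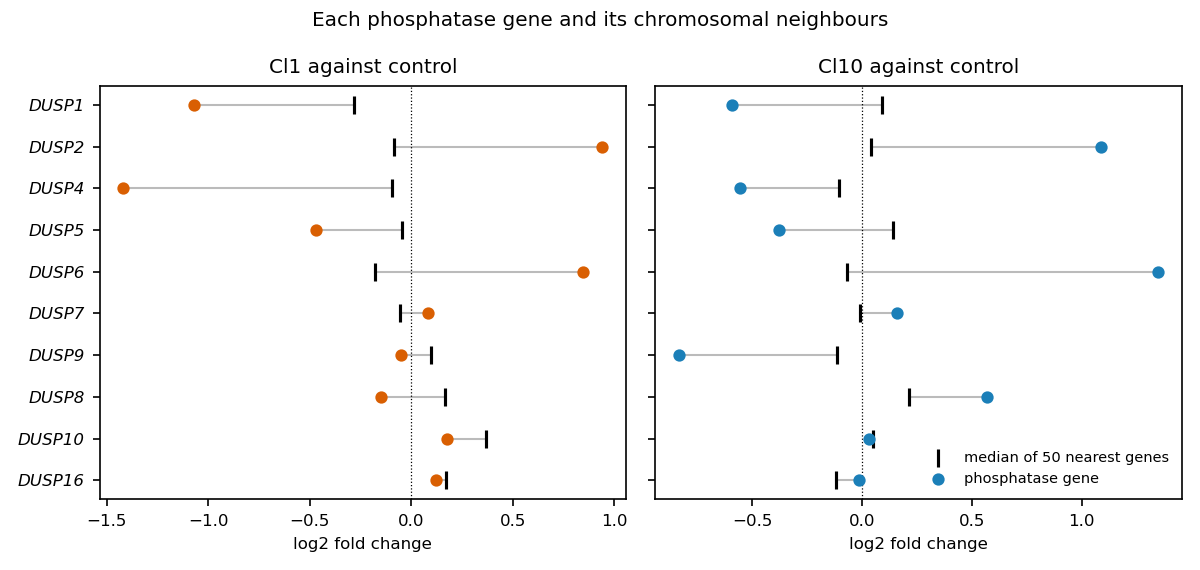
Log2 fold change of each phosphatase gene (points) and median log2 fold change of its 50 nearest tested genes (black ticks) in Cl1 and Cl10 against the control. The ticks lie between -0.28 and 0.37, and DUSP1, DUSP2, DUSP4, DUSP5 and DUSP6 lie away from theirs in both clones.

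The genes whose pattern over the 6 libraries was most like that of DUSP1 were sought among 11654 genes with a mean of at least 5 CPM, by the root mean square distance of centred log2 normalized counts. The nearest were RUNX2, a transcription factor of the Runt family (0.0874), the cadherin gene CDH8 (0.0911), SRCIN1 (0.110), LRIG1, a negative regulator of ERBB receptors (0.112), and KYAT1 (0.116). Among the members, DUSP4 was nearest (0.215, rank 131) and DUSP5 next (0.281, rank 465), whereas DUSP6 (0.935, rank 11370) was near the far end. DUSP2, at 0.901, gets no rank, since it reached the mean of 5 CPM only through the clones. The 6 libraries come from 3 groups, so these distances rest on few independent points.

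Other phosphatases that act on MAP kinases or are related to the family were counted from a list of 25 names, of which 23 were in the table. In Cl1, 18 were tested, 2 were higher (DUSP13 and STYXL2) and 1 was lower (PTPRR). Both higher genes passed the filter on low counts only through the Cl1 libraries, which selects for genes high there, so nothing is read from their count. In Cl10, 16 were tested, 5 were higher (DUSP3, DUSP22, DUSP28, STYX and STYXL2) and 2 were lower (DUSP18 and PTPRR). Of the 5, STYXL2 passed the filter only through the Cl10 libraries, so nothing is read from its call. Over all genes tested, 12.4% were higher and 12.8% lower in Cl1, and 20.6% and 21.8% in Cl10. The median log2 fold change of those tested other than STYXL2 was -0.0033 in Cl1, with DUSP13 included, and 0.07 in Cl10. PTPRR, a receptor-type tyrosine phosphatase that binds and inactivates ERK, had 609 and 635 normalized counts in the control, 222 and 217 in Cl1 and 372 and 333 in Cl10. It fell by 1.49 ± 0.14 in Cl1 (SE, edgeR adjusted p = 1.8e-05) and by 0.80 ± 0.11 in Cl10 (edgeR adjusted p = 0.00165), the same order of groups as DUSP1 and DUSP4. DUSP3, a small dual-specificity phosphatase of ERK and JNK, was higher in Cl10 by 0.58 ± 0.08 (edgeR adjusted p = 0.00162) and differed by 0.14 in Cl1 (edgeR adjusted p = 0.368). STYXL2, a catalytically inactive relative listed under its older name, had 0 raw counts in both control libraries, 13 and 9 in Cl1 and 19 and 15 in Cl10. DUSP13 rested on 10 and 11 raw counts in the control and 42 and 40 in Cl1.

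Of the 10 MAP kinases themselves, 2 were higher and 1 lower in Cl1, and 4 were higher and 2 lower in Cl10. Among all genes tested, 12.4% were higher and 12.8% lower in Cl1, and 20.6% and 21.8% in Cl10. MAPK13 (p38δ) was higher by 0.95 in Cl1 and 0.50 in Cl10, and MAPK7 (ERK5) by 0.53 and 0.73, whereas MAPK11 (p38β) fell by 0.44 and 0.66 (edgeR adjusted p at most 0.0146). In Cl10, MAPK8 (0.31) and MAPK10 (0.36), which encode JNK enzymes, also rose and MAPK12 fell by 0.45. The 50 genes nearest to MAPK8 had a median of 0.33 in Cl10, as large as the difference of MAPK8 itself.

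Of 15 genes known to respond to ERK signalling, as DUSP6 does, 6 were higher and 5 lower in Cl1, and 5 were higher and 6 lower in Cl10, beside 12.4% and 12.8% of all genes in Cl1 and 20.6% and 21.8% in Cl10. Genes of this list thus moved both ways within each clone, and the median log2 fold change was -0.04 in Cl1 and -0.06 in Cl10. The immediate early gene FOS was higher by 2.66 in Cl1 and 1.15 in Cl10, the cyclin gene CCND1 by 0.80 and 0.70, and the feedback inhibitor SPRY4 by 0.81 and 0.41 (edgeR adjusted p at most 0.02). In Cl1 the 5 lower genes were PHLDA1, at -1.59, the ETS factors ETV4 (-0.88) and ETV5 (-0.65), FOSL1 (-0.62) and IER3 (-0.61). The 5 higher genes of Cl10 were FOS, CCND1, SPRY4, FOSL1 (0.31) and SPRED2 (0.23), and PHLDA1 was at -1.15, ETV5 at -0.93, IER3 at -0.75 and ETV4 at -0.54. The median of the 50 genes nearest to FOSL1 was 0.21 in Cl1 and 0.40 in Cl10, the latter above FOSL1 itself. In Cl10 such a median was 0.38 around CCND1, -0.36 around ETV5 and -0.31 around PHLDA1. SPRY1, singled out after its values were seen, had opposite signs, with 0.96 in Cl1 and -0.81 in Cl10. EGR1, singled out likewise, was higher in Cl1 by 1.38 and at -0.06 in Cl10.

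Of 6 genes known to respond to JNK and p38, GADD45A (-0.52) and DDIT3 (-1.66) were lower in Cl1, beside 12.8% of all genes tested. With edgeR 0 of the 6 were higher, beside 12.4% of all genes, and a list this short can hold 0 at that share. JUN alone had an unadjusted p under 0.05 in that direction (0.31, edgeR adjusted p = 0.052). In Cl10, JUN (1.21) and GADD45G (1.18) were higher and DDIT3 was lower (-2.40), beside 20.6% and 21.8% of all genes. DDIT3, which encodes a transcription factor of the stress response, thus had the largest fall of the pathway genes named here in both clones. Its region lay low as well. By their median, the 50 tested genes nearest to DDIT3 stood at -0.80 when Cl10 was compared with the control, and at -0.22 for Cl1. DDIT3 itself lay below these values, and how much of its fall belongs to the region was not tested.

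**Figure D5:**
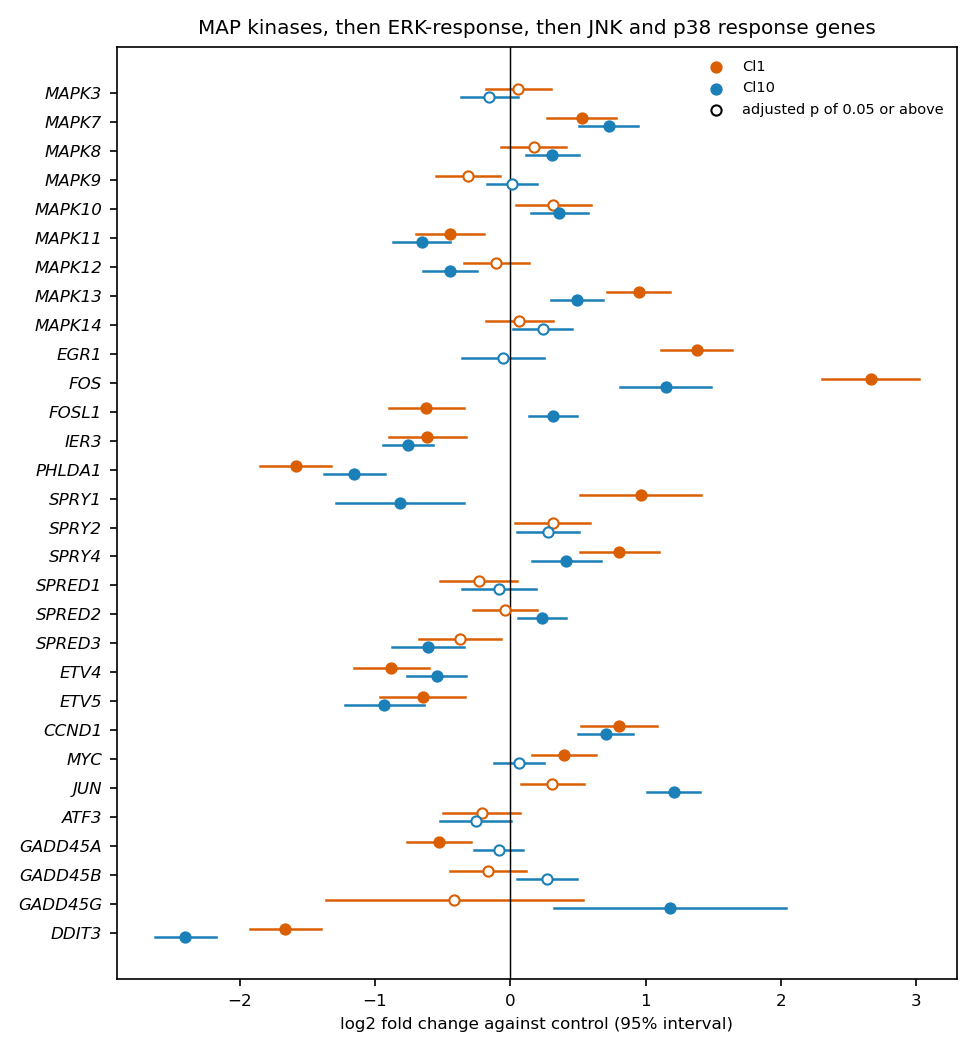
Log2 fold changes against the control in Cl1 (orange) and Cl10 (blue), with 95% intervals of the edgeR fit, of 9 of the 10 MAP kinases, 15 ERK-response genes and 6 JNK and p38 response genes, from top to bottom. Filled points passed an adjusted p of 0.05. FOS in Cl1 (2.66) lies farthest to the right and DDIT3 in Cl10 (-2.40) farthest to the left.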

How the data were processed

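RNA from A253 cells was sequenced in 3 groups of 2 libraries (control, Cl1, Cl10). The authors mapped paired-end reads of poly(A) libraries with HISAT2 to the hg38 genome and used HTSeq to count reads per gene. The deposited values are these raw counts, without normalization. Versions, gene annotation, strand setting and the handling of reads that match several genes are not given in the sources used here. Reads of near-identical copies or antisense genes may therefore be divided in unknown ways. A second experiment of the series, on SOX2, was not analysed here.

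Each comparison was fitted with only its own 4 libraries in edgeR 4.0.16 (R 4.3.3) with filterByExpr, TMM, estimateDisp, glmQLFit and glmQLFTest, and p-values were adjusted by Benjamini-Hochberg over all genes tested. Genes passed at an adjusted p under 0.05, and a stricter rule added an absolute log2 fold change above 1. The SE was obtained as the size of the unshrunk log2 fold change over the root of the F statistic. The 95% intervals use the degrees of freedom of the fit. Libraries with 47016495 counts or more limited precision only for genes with few counts. Distances to DUSP1 used a pseudocount of 0.5. Libraries of a group differed beyond counting noise around the split of their total counts, without TMM scaling. Unadjusted chi-square p was under 0.05 for 58.5% of 15278 genes in the control, 47.3% of 15213 in Cl1 and 23.6% of 14925 in Cl10. A shift that TMM would scale out can add to these shares, and the TMM factors of the Cl1 libraries were 0.9416 and 1.001. Positions and exon lengths are from GENCODE v44 of hg38, which held 58207 of the 58735 identifiers.

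Alternatives were RLE factors, library size alone, DESeq2 1.42.0, no filter, at least 10 counts in every library, one fit of 6 libraries, a replicate block, each library left out, the local median of 50 genes subtracted and the stricter rule. A block with crossed numbers was chosen after seeing the data. The members and gene lists were chosen with earlier results of these data known. Named were the 10 members, of each list at most 3 genes per direction with the largest log2 fold change among those past the threshold in the same direction in both clones, all genes where a sentence counts 5 or fewer, and the 5 genes most like DUSP1. Genes outside this rule are marked as singled out. The values of 1 listed gene are not reported here.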

Additional observations from a re-analysis of the deposited data

Results flagged for a closer look

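For 5 of the 10 phosphatases the effect in Cl10 differed from that in Cl1 by edgeR's quasi-likelihood test of the difference itself. The log2 difference, Cl10 minus Cl1, was 0.86 for DUSP4, 0.72 for DUSP8, 0.50 for DUSP6, 0.48 for DUSP1 and -0.78 for DUSP9, and the edgeR adjusted p was at most 0.00817. Each difference is between a single clone and another, and 24.9% and 24.1% of all genes differed upward and downward in the same comparison. Groups of 2 libraries are too small for a test of outlying libraries.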

How the results depend on the processing

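With an absolute log2 fold change above 1 also required, 2 members passed in Cl1, 2 in Cl10 and 0 between the clones (edgeR; 0 also with DESeq2, and 5 at an unadjusted p under 0.05), in place of 5, 7 and 5. DUSP1 in Cl10 (-0.59) and between the clones (0.48) then fell short of that size. Leaving out each library gave 4 to 5 members past the threshold in Cl1, 4 to 8 in Cl10 (4 without Cl10 replicate 2) and 4 to 7 between the clones, where the lone library was assumed to vary like the other group. DUSP1 then ran from -1.18 to -0.96 in Cl1, from -0.72 to -0.48 in Cl10 and from 0.35 to 0.60 between the clones. With the local median subtracted DUSP1 was at 0.10 between the clones (adjusted p = 0.544). DUSP1 in Cl1 passed under all 14 alternatives.

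Members that had not passed changed sign as follows, and the cause was not tested. With the local median subtracted, DUSP10 and DUSP16 were at -0.19 and -0.0484 in Cl1 and at -0.0193 and 0.11 in Cl10, and between the clones DUSP5 was at -0.0747, DUSP7 at -0.0446, DUSP10 at 0.13 and DUSP16 at 0.21 (adjusted p = 0.0225). With a library left out, DUSP9 ran from -0.20 to 0.0821 in Cl1 and DUSP16 from -0.13 to 0.093 in Cl10, with 0.016 without Cl10 replicate 1. DUSP7 in Cl10 passed without control replicate 1 or 2 (adjusted p = 0.00391 and 0.0061). Between the clones DUSP7 passed with library size alone (0.15; adjusted p = 0.0399), and without Cl1 replicate 1 so did DUSP10 (-0.16) and DUSP16 (-0.18).

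Same-numbered libraries did not deviate together (correlations over 11655 genes of -0.26, -0.253 and -0.00134), so the numbers do not pair them. With the replicate block 5, 7 and 5 members passed, as without it, and 4841, 8681 and 9894 of all genes against 5064, 8439 and 9706. With crossed numbers the members stayed at 5, 7 and 5, and 6894, 9927 and 9982 of all genes passed. Over all genes the stricter rule left 1521, 2669 and 2136, and leaving out a Cl1 or Cl10 library left 2718 or 2861 in Cl1 and 5263 or 5141 in Cl10.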
